A study of Mus musculus with 8 samples.

Results

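The Mir106a-363 cluster is a group of 6 microRNA (miRNA) genes on the mouse X chromosome, Mir106a, Mir18b, Mir20b, Mir19b-2, Mir92-2 and Mir363. It was examined in small RNA libraries of spleen B cells and of the RNA bound to AGO2 in such cells. The 6 genes were found in the count tables by matching the mm10 coordinates of each feature to RefSeq symbols, and they are 6 of 2202 features, 560 of which had a count in some library. All 6 had counts in all 8 libraries. There were 4 groups of 2 libraries each: AGO2 immunoprecipitates (IP) of proliferating B cells, IP of resting B cells, input RNA of proliferating B cells and input RNA of resting B cells. All cells came from spleens of Ago2HA/HA mice, in which both copies of the Ago2 gene carry an HA epitope that the precipitating antibody binds. The control cells of the study carry this allele too. Resting B cells were obtained by removing cells that bear CD43, and proliferating cells were such cells after activation in culture, with an agent that the labels do not name. The labels state neither the age of the animals nor that replicates are separate animals or cultures, so the p-values measure the spread between libraries, which may be technical. Precipitation from cells without the epitope yielded no RNA, per the labels, so no library measures the background of the IP.

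A miRNA is cut from a hairpin, and 1 strand of it guides an Argonaute protein such as AGO2 to messenger RNAs that pair mainly with its seed, bases 2 to 8. The Mir106a-363 cluster is a copy of the Mir17-92 cluster, whose miRNAs are known to promote proliferation and survival of lymphocytes and to restrain Bcl2l11 and Cdkn1a. A further related cluster, Mir106b-93-25, lies within Mcm7. Mir106a-363 is known as a site of retroviral insertion in mouse T cell tumours, and deletion of the cluster in mice was reported to leave them without an obvious defect.

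The mature miRNAs below are shown because their seeds set the targets that the cluster shares with its relatives, and because the positions at which they differ decide how well reads can be assigned. They are RefSeq sequences of the assembly GRCm38.p6, 5′ to 3′, with the seed in capitals, and the table held 11 mature entries for 6 of 6 cluster genes. The arm shown is the one usually loaded into Argonaute. The first family has the seed AAAGUGC. miR-106b-5p of Mir106b-93-25 and miR-6383 have this seed too and are not shown. Those shown are miR-106a-5p and miR-20b-5p of the cluster with miR-17-5p and miR-20a-5p of Mir17-92 and miR-93-5p of Mir106b-93-25.
miR-106a-5p: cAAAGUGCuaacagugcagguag
miR-17-5p: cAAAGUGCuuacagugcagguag
miR-20b-5p: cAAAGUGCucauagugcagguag
miR-20a-5p: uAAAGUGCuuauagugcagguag
miR-93-5p: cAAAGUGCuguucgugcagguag
The seed AAGGUGC is that of miR-18b-5p of the cluster and of miR-18a-5p, which RefSeq lists under the gene Mir18.
miR-18b-5p: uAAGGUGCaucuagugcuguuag
miR-18a-5p: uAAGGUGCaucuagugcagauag
The seed GUGCAAA is that of miR-19b-3p, made by Mir19b-2 and by Mir19b-1 of Mir17-92, and of miR-19a-3p.
miR-19b-3p: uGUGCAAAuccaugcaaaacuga
miR-19a-3p: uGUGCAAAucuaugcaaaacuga
The seed AUUGCAC is that of miR-92a-3p, made by Mir92-2 and by Mir92-1 of Mir17-92, of miR-363-3p, and of miR-25-3p of Mir106b-93-25. It is also that of miR-32-5p, miR-92b-3p and miR-367-3p, which are not shown.
miR-92a-3p: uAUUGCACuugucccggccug
miR-363-3p: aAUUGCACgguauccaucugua
miR-25-3p: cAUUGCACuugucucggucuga

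Most of these miRNAs differ from their relatives by 1 to 3 bases outside the seed. In the changes given here the base of the relative comes first, then the position counted from 1 at the 5′ end, then the base of the cluster miRNA. miR-106a-5p differs from miR-17-5p by U10A alone over 23 bases. miR-20b-5p differs from miR-20a-5p by U1C and U10C, and miR-106a-5p differs from miR-20b-5p by C10A and U12C. miR-18b-5p differs from miR-18a-5p by A18U and A20U. miR-363-3p shares little beyond the seed with miR-92a-3p, with 11 differences over 21 bases. Neither miR-92a-3p nor miR-19b-3p can be told apart from the product of the homologous gene, since each is identical in 2 genes. The hairpins of Mir92-2 and Mir92-1 part at the first base after the mature miRNA, as the bases in capitals show.
Mir92-2: uauugcacuugucccggccugAGGAA
Mir92-1: uauugcacuugucccggccugUUGAG
Reads that stop at the end of miR-92a-3p or miR-19b-3p therefore match 2 hairpins. The sources used here do not say how such reads were counted, so the values of Mir92-2 and Mir19b-2 are uncertain.

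The 6 genes lie on the minus strand at chrX:52741693-52742567 (mm10), within 875 nt. In the direction of transcription the order is Mir106a (chrX:52742503-52742567), Mir18b (chrX:52742331-52742413), Mir20b (chrX:52742113-52742192), Mir19b-2 (chrX:52741983-52742066), Mir92-2 (chrX:52741838-52741928) and Mir363 (chrX:52741693-52741767). The gaps between neighbouring features were 89, 138, 46, 54 and 70 nt in that order. No other feature of the tables overlapped them. In RefSeq the non-coding RNA gene Kis2 (chrX:52742563-52744593) overlapped Mir106a by 5 nt, and no annotated gene overlapped the other members. Each feature covers the whole hairpin, so the arms were not separated.

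Library totals ranged from 795229 to 1376045 counts in the IP of proliferating cells, from 788869 to 1681148 in the IP of resting cells, from 213418 to 276287 in the input of proliferating cells and from 358764 to 386598 in the input of resting cells. A floor of 3 counts corresponded to between 1.78 and 14.1 CPM (counts per 1000000 counts of the library), and no member had fewer than 4 counts in any library. All 6 members were among the 219 features kept by the filter on low counts. Levels are CPM with TMM factors, which scale each library to the bulk of its features, so each value is relative to the other RNAs of its library. An IP value is no measure of the amount of RNA bound, and an input value is no measure of the amount per cell. The tables hold miRNA features alone, so protein-coding B cell markers cannot be read. All 3 lymphocyte miRNAs of the marker list were counted, and their summed share was 19.4% to 19.8% in the IP and 23.2% to 24.1% in the input of proliferating cells, against 22.8% to 26.6% in the IP and 36.8% to 38.2% in the input of resting cells. Its members differed in opposite directions in the input: Mir150 made up 2.88% and 3.84% of the input of proliferating cells against 30.7% and 30.2% of the input of resting cells, and Mir155, a miRNA of activated B cells, 15.3% and 14.8% against 1.21% and 1.08%. All 3 miRNAs of the B cell activation list (Mir155, Mir21a and Mir146) were counted, and they summed to 33.8% and 32.1% of the IP and 36.4% and 35.2% of the input of proliferating cells, against 22.4% and 20.4% of the IP and 12.7% and 12.7% of the input of resting cells. In the input all 3 had larger shares in proliferating cells, but the IP was mixed. Mir155 had 10.8% and 12.4% of the IP of proliferating cells against 0.836% and 1.04% of the IP of resting cells. In the same order Mir21a had 12.6% and 8.71% against 7.32% and 8.39%. Mir146 had 10.43% and 10.95% against 14.21% and 10.94%, so it was not higher there. The resting libraries came in 1 table and the proliferating libraries in another, so that cell state and table cannot be told apart.

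The level of Mir20b did not overlap between any 2 of the 4 groups. It had 8463 and 9945 CPM in the IP of proliferating cells, 1446 and 1471 CPM in the IP of resting cells, 3243 and 3427 CPM in the input of proliferating cells, and 1304 and 1144 CPM in the input of resting cells. Mir92-2 had 4498 and 4693 CPM in the IP of proliferating cells, 2560 and 2275 CPM in the IP of resting cells, 1721 and 1575 CPM in the input of proliferating cells, and 731 and 648 CPM in the input of resting cells. For Mir92-2 as well the 4 groups were apart, but the resting IP stood above the proliferating input, whereas for Mir20b it stood below. Mir106a had 1265 and 1296 CPM in the IP of proliferating cells, 170 and 209 CPM in the IP of resting cells, 660 and 603 CPM in the input of proliferating cells, and 218 and 147 CPM in the input of resting cells. Its 2 resting groups overlapped.

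The remaining 3 members had lower counts. Mir18b had 284 and 626 CPM in the IP of proliferating cells, 51.5 and 56.2 CPM in the IP of resting cells, 460 and 466 CPM in the input of proliferating cells, and 53.2 and 54.0 CPM in the input of resting cells. The 2 IP libraries of proliferating cells differed more from each other than those of any other group did for this gene. Mir363 had 272 and 296 CPM in the IP of proliferating cells, 50.0 and 46.8 CPM in the IP of resting cells, 319 and 189 CPM in the input of proliferating cells, and 67.2 and 105.6 CPM in the input of resting cells. Mir19b-2 had the fewest counts, with 98 and 182 counts in the IP of proliferating cells, 57 and 32 counts in the IP of resting cells, 20 and 8 counts in the input of proliferating cells, and 7 and 4 counts in the input of resting cells. The plot of levels by library shows the 6 members side by side.

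**Figure D1:**
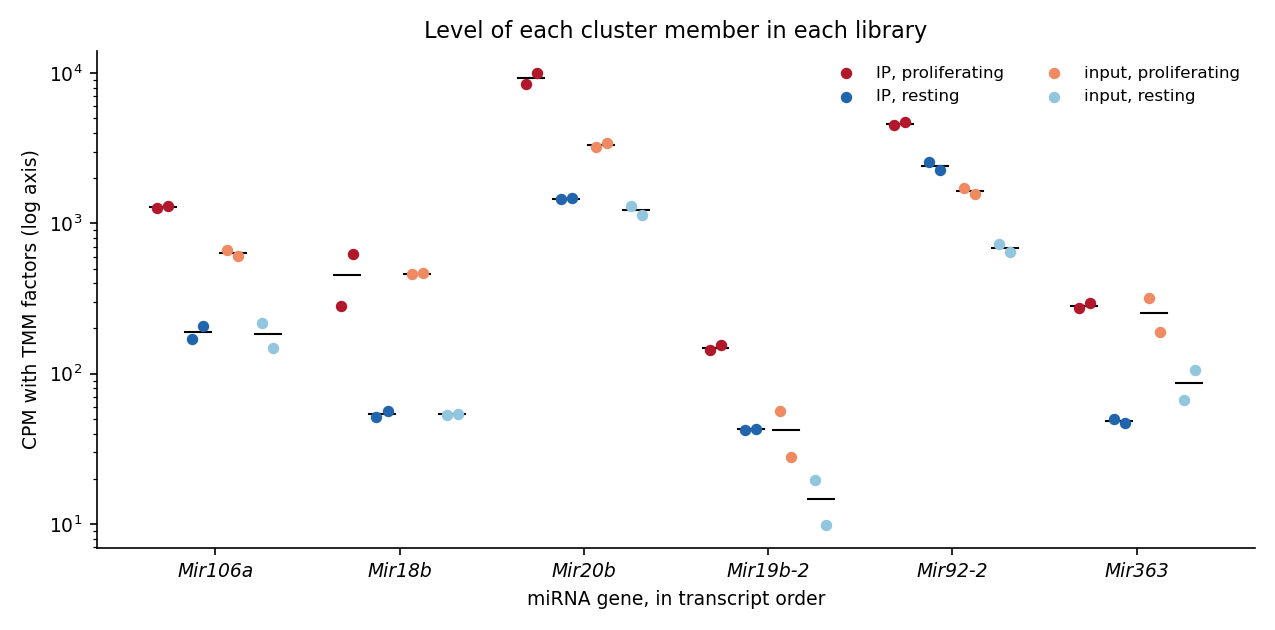
Level of each member in each of the 8 libraries, in CPM with TMM factors on a log axis, with points for libraries and black lines for group means. Mir20b reached 8463 and 9945 CPM in the IP of proliferating cells, and Mir19b-2 was lowest in all 4 groups, as it was per length.

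Levels were compared between genes per 100 nt of feature length. The mature miRNAs are much shorter than the features, so counts need not scale with feature length. Within each group the order of the members by mean CPM was the same as the order per 100 nt, but it differed between groups. In the IP of proliferating cells the order was Mir20b (11505 ± 1310 CPM per 100 nt), Mir92-2 (5050 ± 152), Mir106a (1970 ± 33.1), Mir18b (548 ± 291), Mir363 (379 ± 22.5) and Mir19b-2 (177 ± 9.24; SD, n = 2 throughout). Mir18b and Mir363 overlapped there and did not differ beyond their spread, while all other neighbours in the order were apart. The input of proliferating cells gave the same order with no overlap between neighbours. In the IP of resting cells Mir92-2 came first with 2657 ± 222 CPM per 100 nt and Mir20b followed with 1823 ± 21.8 (SD, n = 2). Mir18b again overlapped with Mir363 per length, but not in CPM (51.5 and 56.2 against 50.0 and 46.8). In the input of resting cells Mir20b led with 1530 ± 141 CPM per 100 nt, and Mir363 stood above Mir18b.

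The first comparison, of proliferating with resting cells in input RNA, asks how the level of the cluster relative to other miRNAs changes with activation. Most of the cluster was higher in proliferating cells. Of the 6 members 5 rose and none fell at an adjusted p under 0.05 (edgeR's quasi-likelihood test over 219 features), where 26.0% of all tested features rose, 23.3% fell and 49.3% changed in either direction. All 6 had their groups apart, as did 78.5% of tested features. The median log2 fold change was 1.55 over the members and 0.04 over all features. Mir18b changed most, by 8.61-fold (log2 3.11 ± 0.45 SE, adjusted p = 3.4e-07), with 163 and 133 counts in proliferating cells against 19 and 22 counts in resting cells. Mir106a, of the proliferation-promoting miR-17 family, rose 3.46-fold (log2 1.79 ± 0.36 SE, adjusted p = 6.9e-05). Mir20b, the other member of that family in the cluster, rose 2.72-fold (log2 1.45 ± 0.28 SE, adjusted p = 4.1e-05). Mir92-2 rose 2.39-fold (log2 1.26 ± 0.29 SE, adjusted p = 0.00043) and Mir363, which has the same seed, rose 2.94-fold (log2 1.55 ± 0.46 SE, adjusted p = 0.0051). Mir19b-2 had a log2 fold change of 1.54 ± 0.74 SE that did not pass (adjusted p = 0.081). In these bulk libraries more cells that express a gene and more of its RNA per cell cannot be told apart.

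Summed over the cluster, the members made up 0.828% and 0.840% of all counts in the input of proliferating cells against 0.238% and 0.222% in the input of resting cells. The summed level was 6374 ± 121 CPM in proliferating and 2251 ± 201 CPM in resting input (SD, n = 2 each), a ratio of 2.83. The ratio of summed levels was 2.0 for Mir17-92 and 1.59 for Mir106b-93-25. For Mir106a-363, Mir17-92 and Mir106b-93-25 in turn, the ratios were 2.21, 1.56 and 1.24 with upper-quartile factors. With library totals they were 3.62, 2.56 and 2.03. Without Mir92-2 and Mir19b-2 the ratio of the cluster was 3.03 with TMM factors. The value of Mir17-92 rests largely on Mir92-1, with 26147 of 34622 CPM in the proliferating input. Single members of the cluster stood beside their homologues as follows: log2 fold changes were 1.79 for Mir106a and 1.16 for Mir17, 3.11 for Mir18b and 2.63 for Mir18, 1.45 for Mir20b and 1.40 for Mir20a, and 1.26 for Mir92-2 and 0.94 for Mir92-1. The differences within these pairs were not tested. The call of Mir363 was lost without replicate 1 of the proliferating input (log2 1.12, adjusted p = 0.087) and without replicate 1 of the resting input (log2 1.32, adjusted p = 0.087), with adjusted p from 0.002 to 0.087 over 16 alternatives. Mir19b-2 passed without replicate 2 of the proliferating input (log2 2.09, adjusted p = 0.033) and with library totals in place of TMM factors (log2 1.89, adjusted p = 0.028), with adjusted p from 0.028 to 0.41 over 16 alternatives.

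Markers of other cell types differed between the states as follows. Mir223, the myeloid marker, was at 0.221% and 0.339% of the counts in the input of proliferating cells against 1.2% and 2.9% in the input of resting cells, and at 0.106% and 0.0695% in the IP of proliferating cells against 1.45% and 2.94% in the IP of resting cells. Of the erythroid pair, Mir144 made up 0.000218% to 0.00234% in proliferating and 0.00684% to 0.0235% in resting libraries, and Mir451a was not matched to a feature. The 5 epithelial miRNAs, all counted, summed to 0.0380% to 0.0759% in proliferating and 0.109% to 0.209% in resting libraries. Endothelial Mir126a was at 0.0626% to 0.176% in proliferating and 0.00613% to 0.0254% in resting libraries. Hepatocyte Mir122 was at 0.000509% to 0.00796% in proliferating and 0.000836% to 0.00355% in resting libraries. Of the stromal list 4 of 6 were counted, with Mir199a-2 and Mir214 at 0, and their sum was 0.000469% to 0.00225% in proliferating and 0.00129% to 0.00809% in resting libraries. The neuronal list summed to at most 0.000362%, and all 5 muscle miRNAs were at 0. The part of these cells in the results of the cluster was not tested.

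The same comparison in the IP asks how the miRNAs bound to AGO2 change with activation. All 6 members were higher in the IP of proliferating than of resting cells, where 28.3% of tested features rose, 23.7% fell and 52.1% changed in either direction. The groups of all 6 were apart, as were those of 74.9% of tested features. The median log2 fold change was 2.60 over the members and 0.21 over all features. Mir18b rose 8.46-fold (log2 3.08 ± 0.42 SE, adjusted p = 6.7e-08), Mir106a 6.77-fold (log2 2.76 ± 0.35 SE, adjusted p = 1.4e-08) and Mir20b 6.31-fold (log2 2.66 ± 0.28 SE, adjusted p = 2.6e-10). Mir363 rose 5.84-fold (log2 2.55 ± 0.45 SE, adjusted p = 8.2e-06). Mir19b-2 rose 3.48-fold (log2 1.80 ± 0.60 SE, adjusted p = 0.011). Mir92-2 changed least, by 1.90-fold (log2 0.93 ± 0.28 SE, adjusted p = 0.0054), and Mir92-1, which makes the same mature miRNA, had a log2 fold change of 0.94 ± 0.23 SE. Mir17, the closest relative of Mir106a, had one of 3.06 ± 0.31 SE and Mir20a one of 1.99 ± 0.28 SE.

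The cluster made up 1.28% and 1.46% of all counts in the IP of proliferating cells against 0.344% and 0.388% in the IP of resting cells. Its summed level was 15967 ± 1474 CPM in proliferating and 4211 ± 155 CPM in resting IP (SD, n = 2 each), a ratio of 3.79, and without Mir92-2 and Mir19b-2, whose products are identical to those of Mir17-92, the ratio was 6.41. Over all their members the ratios were 2.15 for Mir17-92 and 2.16 for Mir106b-93-25. The value of Mir17-92 keeps the identical copies Mir92-1 and Mir19b-1, so it can be set beside 3.79 but not beside 6.41. Mir92-1 alone had a mean of 79498 of the 100804 CPM of Mir17-92 in the proliferating IP, and 41497 of 46806 CPM in the resting IP. With upper-quartile factors the ratio of the cluster was 2.39, and 4.03 without Mir92-2 and Mir19b-2. Over all members it was then 1.36 for Mir17-92 and 1.37 for Mir106b-93-25. The fold change of Mir18b depended on replicate 2 of the proliferating IP and was log2 2.25 without it (adjusted p = 0.00032, range 3e-10 to 0.00032 over 16 alternatives). Mir92-2 lost its call without any 1 of the 4 input libraries, which share the fit but not the comparison, at log2 0.61 and 0.50 without replicates 1 and 2 of the proliferating input and 0.49 and 0.66 without replicates 1 and 2 of the resting input (adjusted p = 0.061, 0.11, 0.21 and 0.077). It was also lost with upper-quartile factors (log2 0.27, adjusted p = 0.39, range 0.00031 to 0.39 over 16 alternatives). Mir19b-2 lost its call with upper-quartile factors (log2 1.14, adjusted p = 0.1), with no filter on low counts (1.58, adjusted p = 0.056), without replicate 1 of the resting input (1.36, adjusted p = 0.063) and without replicate 2 of the proliferating IP (1.60, adjusted p = 0.077), in a range from 0.0032 to 0.1. Under upper-quartile factors the log2 fold changes of Mir106a, Mir18b, Mir20b and Mir363 were 2.10, 2.37, 1.99 and 1.88, and those 4 remained called under every alternative tried.

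**Figure D2:**
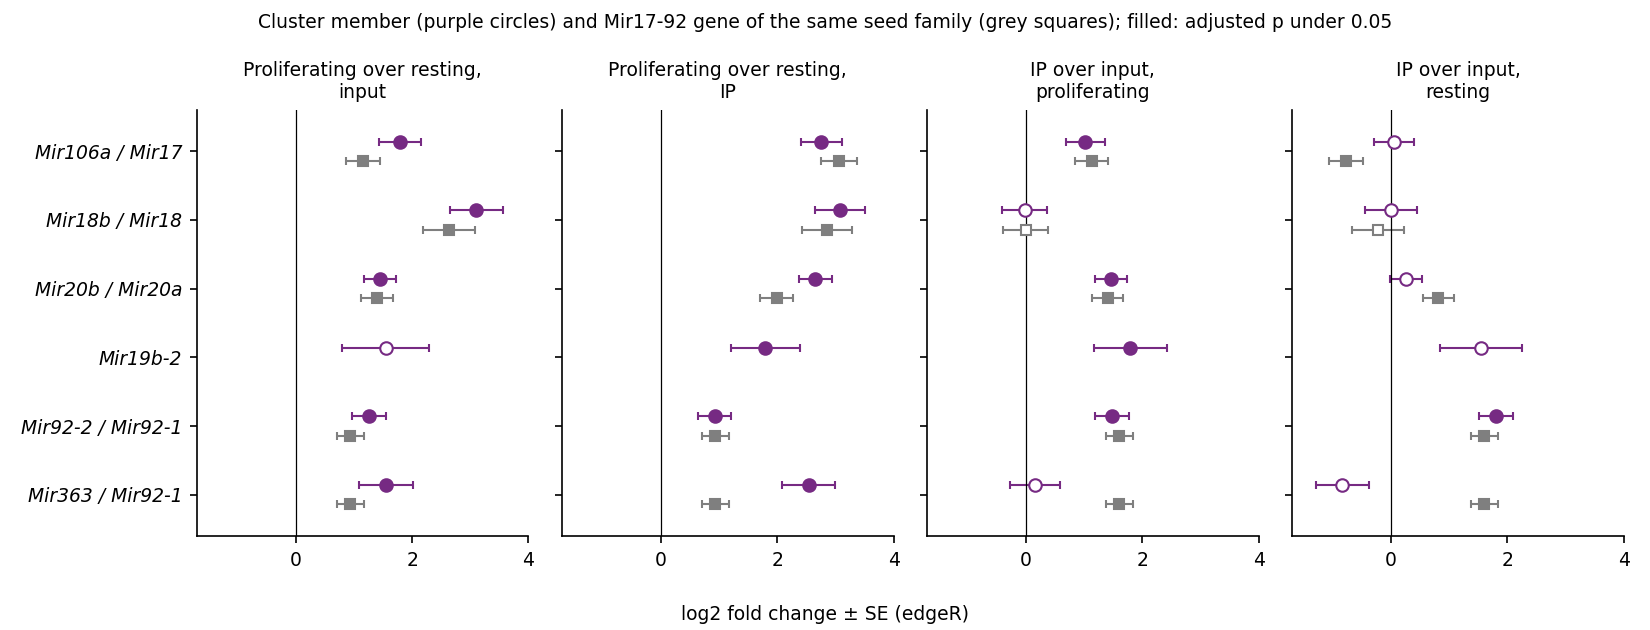
Log2 fold change with its SE (edgeR) of each cluster gene (purple circles) and of the Mir17-92 gene of the same seed family (grey squares), in 4 comparisons, filled where the adjusted p was under 0.05 (the grey square beside Mir363 is Mir92-1, with the same seed, and Mir19b-1 is left out for its low counts). All 6 members were higher in proliferating cells in the IP, and in resting cells Mir92-2 alone of the members passed for IP over input.

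The comparison of IP with input asks which members were more or less abundant among AGO2-bound RNA than among input RNA. In proliferating cells 4 of the 6 members were higher in the IP, where 13.2% of tested features were higher, 13.7% lower and 26.9% different in either direction. IP and input libraries were apart for 4 members, and for 61.2% of tested features. The median log2 fold change of IP over input was 1.24 over the members and 0.11 over all features. Mir92-2 was 2.79-fold higher in the IP (log2 1.48 ± 0.29 SE, adjusted p = 7.9e-05) and Mir20b 2.76-fold higher (log2 1.46 ± 0.27 SE, adjusted p = 5.1e-05). Mir19b-2 was 3.47-fold higher (log2 1.80 ± 0.63 SE, adjusted p = 0.029), from 20 and 8 counts in the input. Mir106a was 2.03-fold higher (log2 1.02 ± 0.34 SE, adjusted p = 0.02). Mir18b and Mir363 did not pass, with log2 values of -0.02 ± 0.39 SE (adjusted p = 0.97, 95% interval -0.78 to 0.74) and 0.16 ± 0.43 SE (adjusted p = 0.81, 95% interval -0.68 to 0.99), and their IP and input libraries overlapped. Mir18, the homologue of Mir18b, had a log2 value of -0.01 ± 0.39 SE.

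The calls of Mir20b and Mir92-2 held under all 16 alternatives, with their lowest log2 values, 0.85 and 0.87, from library totals. That of Mir106a was lost with library totals (log2 0.41, adjusted p = 0.31), with no filter (0.91, adjusted p = 0.066), without replicate 1 or 2 of the proliferating input (0.99 and 0.61, adjusted p = 0.13 and 0.36), without replicate 1 of the resting input (0.74, adjusted p = 0.15) and without replicate 2 of the proliferating IP (0.97, adjusted p = 0.063), in a range from 0.005 to 0.36. That of Mir19b-2 was lost with library totals (1.20, adjusted p = 0.12), with upper-quartile factors (1.66, adjusted p = 0.054), with no filter (1.69, adjusted p = 0.085), without replicate 2 of the proliferating input (1.05, adjusted p = 0.3), without replicate 1 of the resting input (1.5, adjusted p = 0.089) and without replicate 1 or 2 of the proliferating IP (1.92 and 1.73, adjusted p = 0.076 and 0.12), in a range from 0.0083 to 0.3.

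In resting cells Mir92-2 alone of the 6 members was higher in the IP, 3.51-fold (log2 1.81 ± 0.29 SE, adjusted p = 4.4e-06), and it stayed called under all 16 alternatives. Among all tested features 13.2% were higher, 15.5% lower and 28.8% different in either direction. IP and input libraries were apart for 4 members, and for 68.0% of tested features, while the median log2 fold change of IP over input was 0.15 over the members and -0.05 over all features. The members of the miR-17 family did not pass. Mir20b had a log2 value of 0.25 ± 0.27 SE (adjusted p = 0.51, 95% interval -0.28 to 0.78) and Mir106a one of 0.05 ± 0.35 SE (adjusted p = 0.92, 95% interval -0.63 to 0.74). Mir18b had one of 0.00 ± 0.45 SE (adjusted p = 0.99), with 51.5 and 56.2 CPM in the IP and 53.2 and 54.0 CPM in the input. Mir363 had one of -0.84 ± 0.46 SE (adjusted p = 0.17), and its 2 IP libraries lay below its 2 input libraries. Mir19b-2 had one of 1.54 ± 0.71 SE (adjusted p = 0.095), on 7 and 4 counts in the input, and passed without replicate 1 or 2 of the proliferating input (1.77 in either case, adjusted p = 0.036 and 0.039, range 0.036 to 0.37). Of the homologues, Mir92-1 was higher in the resting IP (1.61 ± 0.23 SE) as Mir92-2 was, Mir20a had a log2 value of 0.81 ± 0.27 SE (adjusted p = 0.02) and Mir17 one of -0.77 ± 0.29 SE (adjusted p = 0.042). Both calls depended on the processing: that of Mir20a held under 11 of 16 alternatives (log2 0.26 to 1.11, adjusted p = 0.0021 to 0.5) and not without replicate 2 of the resting IP (0.26, adjusted p = 0.5), replicate 2 of the resting input or replicate 1 of the proliferating IP, and that of Mir17 under 4 of 16 (log2 -1.18 to -0.51, adjusted p = 0.0021 to 0.46).

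The difference between the states in IP over input was tested directly. Mir20b was the only member to pass, with a log2 difference of 1.21 ± 0.38 SE (adjusted p = 0.022), where 9.59% of tested features had a positive, 7.76% a negative and 17.4% any called difference. Mir106a (0.97 ± 0.48 SE, adjusted p = 0.18) and Mir363 (0.99 ± 0.63 SE, adjusted p = 0.3) had values of similar size that did not pass. Mir92-2 had -0.33 ± 0.40 SE (adjusted p = 0.63), Mir19b-2 0.25 ± 0.99 SE (adjusted p = 0.89) and Mir18b -0.03 ± 0.59 SE (adjusted p = 0.99). The call of Mir20b held under 7 of 15 alternatives. It was lost with library totals (0.83, adjusted p = 0.093), upper-quartile factors (0.90, adjusted p = 0.09) and no filter (0.98, adjusted p = 0.098), without replicates 1 and 2 of the proliferating input (0.85 and 0.67, adjusted p = 0.21 and 0.3), without replicates 1 and 2 of the resting input (0.63 and 1.12, adjusted p = 0.49 and 0.11) and without replicate 2 of the proliferating IP (0.95, adjusted p = 0.078), in a range from 0.00065 to 0.49. Mir106a passed without replicate 2 of the resting IP (1.41, adjusted p = 0.036, range 0.036 to 0.89).

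The makeup of the cluster within a library does not depend on scaling between libraries. Mir20b gave 56.7% and 58.5% of the cluster's counts in the IP of proliferating cells, 33.5% and 35.9% in the IP of resting cells, 50.2% and 54.5% in the input of proliferating cells, and 54.5% and 54.2% in the input of resting cells. Mir92-2 gave 30.1% and 27.6% in the IP of proliferating cells, 59.3% and 55.5% in the IP of resting cells, 26.6% and 25.04% in the input of proliferating cells, and 30.5% and 30.7% in the input of resting cells. The resting IP thus stood apart from the 3 other groups, with the share of Mir92-2 above and that of Mir20b below those in all other libraries. A larger share of Mir92-2, whose counts are uncertain, lowers the shares of all other members. In CPM Mir20b stood no lower in the resting IP (1446 and 1471) than in the resting input (1304 and 1144). Mir106a gave 8.48% and 7.62% in the IP of proliferating cells, 3.94% and 5.09% in the IP of resting cells, 10.2% and 9.59% in the input of proliferating cells, and 9.12% and 6.98% in the input of resting cells. Mir18b gave 1.90% and 3.68% in the IP of proliferating cells, 1.19% and 1.37% in the IP of resting cells, 7.12% and 7.42% in the input of proliferating cells, and 2.22% and 2.56% in the input of resting cells, so its share was largest in the proliferating input. Mir363 gave 1.14% to 1.82% in the IP libraries and 2.81% to 5.01% in the input libraries, and Mir19b-2 gave at most 1.04% in any library. No test was run on these shares.

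**Figure D3:**
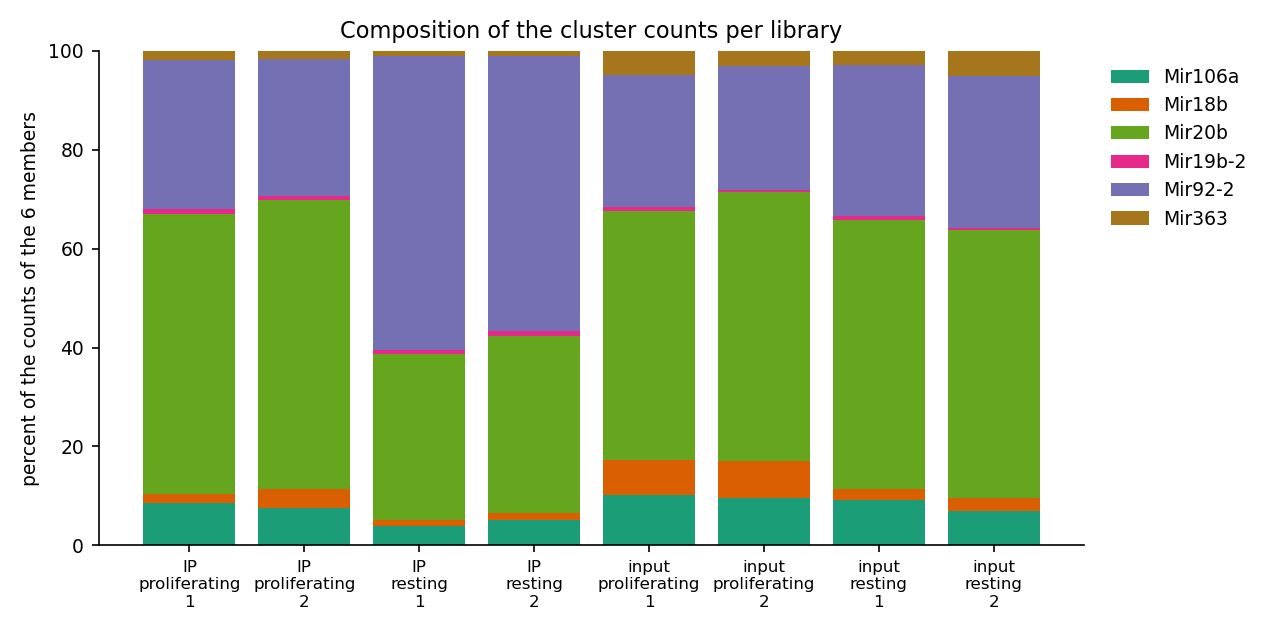
Share of each member in the counts of the 6 members, in percent, for each of the 8 libraries. Mir92-2 made up 59.3% and 55.5% of the cluster's counts in the IP of resting cells and at most 30.7% in the other 6 libraries. Its counts are uncertain, and a larger share of it lowers those of the other members.

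Each member was then set against the Mir17-92 gene with the most similar product, as its share of the counts of the pair. Mir106a held 24.6% and 20.5% of the counts of Mir106a and Mir17 in the IP of proliferating cells, 26.3% and 26.1% in the IP of resting cells, 24.5% and 22.9% in the input of proliferating cells, and 18.9% and 14.3% in the input of resting cells, so that Mir17 had more counts in all 8 libraries. Mir20b held 43.4% and 47.3% of the counts of Mir20b and Mir20a in the IP of proliferating cells, 39.1% and 30.7% in the IP of resting cells, 43.0% and 45.8% in the input of proliferating cells, and 44.0% and 43.2% in the input of resting cells. Mir18b held between 45.2% and 61.1% of the counts of Mir18b and Mir18 in the 8 libraries, with an exact 95% interval as wide as 29.8% to 61.3% where counts were few. Mir92-2 held between 4.81% and 6.09% of the counts of Mir92-2 and Mir92-1. The mature miRNA of these 2 genes is the same, so the split between them rests on reads that extend past it or on the counting. Mir19b-2 held at least 57.1% of the counts of Mir19b-2 and Mir19b-1, on 0 to 22 counts of Mir19b-1. Mir363, set against Mir92-1 of the same seed, held 0.376% and 0.339% of the counts of the pair in the IP of proliferating cells, 0.107% and 0.129% in the IP of resting cells, 1.19% and 0.730% in the input of proliferating cells, and 0.462% and 0.818% in the input of resting cells. The interval given for Mir18b covers counting error only.

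**Figure D4:**
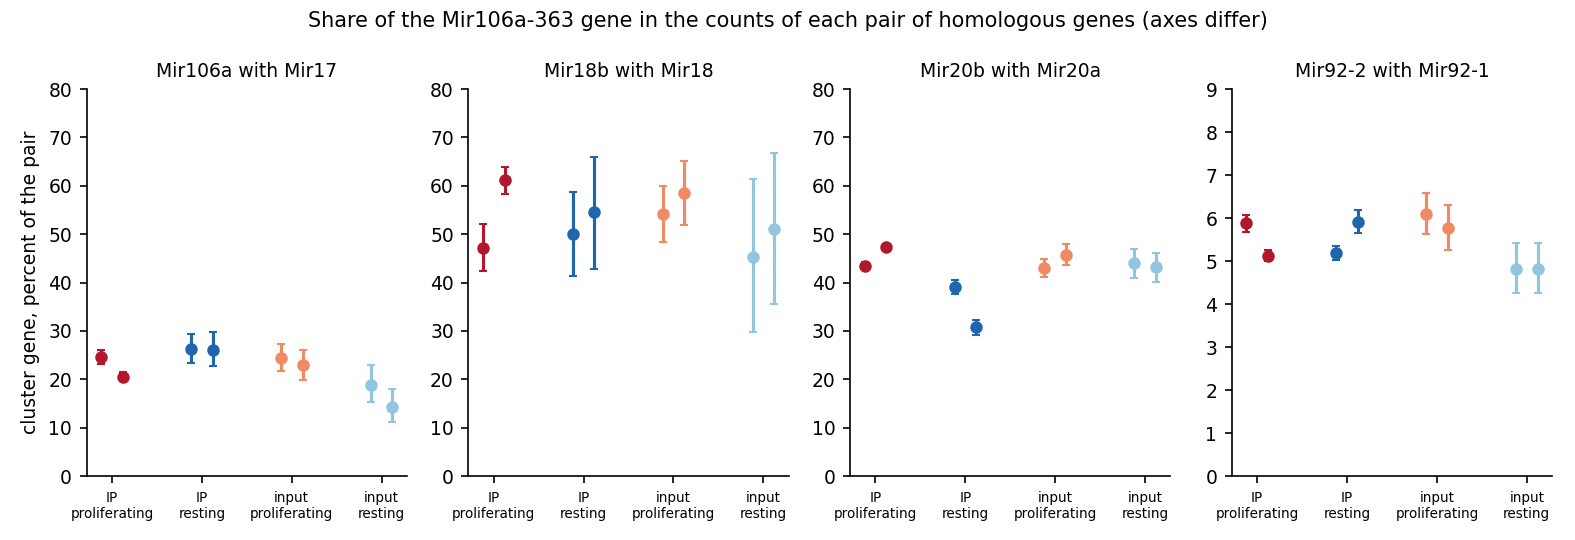
Share of the cluster gene in the counts of a pair of homologous genes, in percent, for each library with its exact 95% binomial interval, by group (the axis for Mir92-2 is shorter). Mir92-2 stayed between 4.81% and 6.09% of its pair, and Mir18b lay between 45.2% and 61.1% of its pair.

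Within the 2 largest seed families the cluster held a small part of the counts. Of the 7 genes with the seed AAAGUGC, Mir106a and Mir20b held 3.56% and 4.57% of the counts in the IP of proliferating cells, 1.71% and 1.62% in the IP of resting cells, 3.65% and 3.96% in the input of proliferating cells, and 2.62% and 2.22% in the input of resting cells. Most of the counts of that family came from Mir93, at 233228 ± 21582 CPM in the IP of proliferating cells and 93621 ± 5616 CPM in the IP of resting cells (SD, n = 2 each). Of the 7 genes with the seed AUUGCAC, Mir92-2 and Mir363 held 2.76% and 2.17% in the IP of proliferating cells, 2.07% and 2.29% in the IP of resting cells, 2.7% and 2.3% in the input of proliferating cells, and 1.51% and 1.64% in the input of resting cells. Mir32 of this family went against the cluster in the IP, with a log2 fold change of proliferating over resting cells of -2.54 ± 0.37 SE (adjusted p = 1.9e-07). Mir92b, of the same family, had log2 fold changes of 1.28 ± 0.43 SE in IP (adjusted p = 0.012) and 1.81 ± 0.47 SE in input (adjusted p = 0.0018). The share of both families held by the cluster was larger in the proliferating than in the resting input, with the libraries apart.

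The features most like each member over the 8 libraries were found by the root mean square difference of log2 CPM after centring, over 218 other tested features. Mir106a and Mir20b were each other's nearest feature at 0.24, followed by Mir17 (0.35) for Mir106a and Mir20a (0.30) for Mir20b. Mir92-2 was nearest to Mir92-1 (0.14), with which it may share reads. Mir18b was nearest to Mir34a (0.28) and Mir18 (0.29), Mir363 to Mir345 (0.25) and Mir130b (0.39), and Mir19b-2 to Mir92-2 (0.39) and Mir20a (0.42). The third place went to Mir7b (0.38) for Mir106a, Mir182 (0.37) for Mir18b, Mir17 (0.39) for Mir20b, Mir19a (0.42) for Mir19b-2, Mir93 (0.38) for Mir92-2 after Mir19a (0.35), and Mir674 (0.42) for Mir363. The median difference from all other features was 1.34 to 1.72 by member. Likeness here includes the differences between the 4 groups.

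Values of the other miRNA genes of the X chromosome within 1 Mb are given for comparison. Mir322, which lies 312 kb away on the same strand, had 113 and 107 counts in the input of proliferating cells against 681 and 1016 counts in the input of resting cells. Its log2 fold change of proliferating over resting cells was -2.67 ± 0.34 SE in input (adjusted p = 2.8e-08) and -2.06 ± 0.33 SE in IP (adjusted p = 1.2e-06). Mir503, next to Mir322, had log2 fold changes of -1.58 ± 0.64 SE in input (adjusted p = 0.04) and -1.28 ± 0.59 SE in IP (adjusted p = 0.066). Mir542 had no count in the 2 inputs of proliferating cells and 21 and 46 counts in those of resting cells. Mir351 and Mir450b had at most 37 counts in any library, and Mir450-1, Mir450-2, Mir717 and Mir6384 had none.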

How the data were processed

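Small RNA of input and of anti-HA AGO2 IP was sequenced from mouse spleen B cells. QIAseq miRNA libraries were read from 1 end, per the labels' protocols. STAR 2.7.9a, SAMtools 1.15 and the build mm10 were used, per the submitters' processing notes. Per the file headers, the deposited counts are raw, 1 row per miRNA feature, and come from alignments named as deduplicated. Which counter was used, with which strand setting and which rule for multi-mapping reads, is not given in the sources used here. Titles and the cell type label gave the groups.

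Features were named by exact match of coordinates to RefSeq genes of GRCm38.p6 (1179 of 2202). edgeR 4.0.16 in R 4.3.3 fitted 4 groups to all 8 libraries (TMM factors, filterByExpr with a minimum count of 10, 219 features, 4 residual degrees of freedom). The quasi-likelihood test was 2-sided, with Benjamini-Hochberg adjustment over all tested features in each of 5 contrasts and a threshold of 0.05. The SE was taken as |log2 fold change| over the root of F. No 2 libraries of a group agreed within sampling noise (lowest chi-square 8.56 per degree of freedom). The code was tested on simulated data. Alternatives were RLE (DESeq2 1.42.0), upper-quartile and no factors, DESeq2's test, no filter, identical copies summed, only the compared groups, a replicate block, and each library left out. The marker lists, the named genes (members, homologues, seed families, X-linked miRNAs within 1 Mb and the 3 features most like each member) and the tests were chosen with earlier results of these data known.

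Same-numbered libraries did not deviate together (correlations over features from -0.0889 to 0.177 between compared groups), and the labels do not say that numbers mark pairs.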

Additional observations from a re-analysis of the deposited data

Results flagged for a closer look

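Of the members, their homologues in the other clusters, Mir32 and Mir92b, 3 genes differed between proliferating and resting cells in their IP-over-input ratio, by edgeR's quasi-likelihood test of that difference, which called 38 of all 219 features tested (17.4%) in either direction. Mir20b had a log2 difference of 1.21 (adjusted p = 0.022, range 0.00065 to 0.49 over 15 alternatives), with IP over input at log2 1.46 in proliferating and 0.25 in resting cells. Mir17, the homologue of Mir106a, had 1.90 (adjusted p = 0.0012, range 9.5e-07 to 0.11 over 15 alternatives, of which 12 kept the call), with log2 1.13 in proliferating and -0.77 in resting cells. The call of Mir17 was lost without replicate 1 or 2 of the proliferating input and without replicate 1 of the resting input, where the difference was 1.57, 1.30 and 1.36, and its value in resting cells passed under 4 of 16 alternatives. Mir32, which shares its seed with Mir92-2 and Mir363, had -1.81 (adjusted p = 0.01), with log2 0.25 in proliferating and 2.06 in resting cells. In proliferating cells the IP libraries of Mir32, at 401 and 166 CPM, lay on either side of its input at 240 and 235 CPM. Whether the call of Mir32 holds under the alternatives was not examined.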

How the results depend on the processing

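Under the 16 alternatives (15 for the difference between states) the members called numbered 4 to 6 for proliferating over resting cells in input and in IP. For IP over input in proliferating cells they were 4, against 2 with library totals, 3 with upper-quartile factors and 2 with no filter, and 2 to 4 with single libraries left out, where 30 to 63 features were called in place of 59. For IP over input in resting cells the count was 1, and 1 to 2 with single libraries left out. For the difference between states it was 1, against 0 with library totals, 0 with upper-quartile factors and 0 with no filter, and 0 to 2 with single libraries left out. That difference called 38 features, 25 with RLE factors and 22 with upper-quartile factors, and 11 to 46 with single libraries left out. Factors were estimated anew in each such fit. Library totals in place of TMM moved the split of higher and lower calls from 57 and 51 to 75 and 37 (state, input), from 29 and 30 to 16 and 60 (IP over input, proliferating) and from 21 and 17 to 7 and 20 (difference between states). Upper-quartile factors gave 39 and 59 (state, input), 38 and 75 in place of 62 and 52 (state, IP), 33 and 23 in place of 29 and 34 (IP over input, resting) and 7 and 15 (difference between states). The median of all features shifted by 0.36, 0.00, -0.61, -0.24 and -0.36 with library totals and by -0.36, -0.67, -0.13, 0.16 and -0.30 with upper-quartile factors, in the order state in input, state in IP, IP over input in proliferating cells, the same in resting cells, and their difference, and by -0.13 for state in IP with RLE factors.

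The summed level of the cluster in the IP of proliferating cells was 13705 CPM with library totals, 12702 with upper-quartile factors and 11223 without Mir19b-2 and Mir92-2. In the IP of resting cells it was 4473 with RLE factors, 3664 with library totals, 5312 with upper-quartile factors and 1750 without those 2 genes. In the input of proliferating cells it was 6225, 8343, 5609 and 4684 in the same order, and in the input of resting cells 2540 with upper-quartile factors and 1547 without the 2 genes.

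Direction changed only among values that missed the threshold. For IP over input in proliferating cells, Mir363 was -0.45 with library totals and -0.51 to 0.49 with single libraries left out, Mir18b -0.74 to 0.49, and Mir18 -0.47 to 0.21. For IP over input in resting cells, Mir106a was -0.17 with library totals and -0.34 to 0.57 with single libraries left out, and Mir18b was -0.23 with library totals, -0.0090 with copies summed, -0.056 with the compared groups alone and -0.30 to 0.23 with single libraries left out. Mir20b ran from -0.0038 to 0.55 there and Mir18 from -0.41 to 0.13. For the difference between states, library totals and upper-quartile factors gave -0.11 and -0.059 for Mir19b-2, -0.14 and -0.090 for Mir18 and -0.11 and -0.097 for Mir106b, and library totals gave -0.039 for Mir25. With single libraries left out it was -0.85 to 0.65 for Mir18b, -0.79 to 0.55 for Mir19b-2, -0.46 to 0.61 for Mir18, -0.051 to 1.18 for Mir20a, -0.59 to 0.36 for Mir92-1, -0.50 to 0.97 for Mir106b, -0.091 to 0.87 for Mir93 and -0.26 to 0.80 for Mir25. Mir19b-1, with few counts, ran from -4.91 to 1.55 for state in input. The cause of these changes was not tested.

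With the replicate number as a block, the members called stayed at 5, 6, 4, 1 and 1 for state in input, state in IP, IP over input in proliferating and in resting cells and their difference. The block turned the log2 values of Mir18 for IP over input in proliferating cells (0.00085) and of Mir92-1 for the difference (0.0056), both near 0, and Mir17 in resting cells missed the threshold (adjusted p = 0.054). Mir19b-2 had the fewest counts of the members, with 4 to 20 in the inputs. Mir19a, whose product differs from miR-19b-3p by 1 base, had 401 to 661 counts in the same libraries. The parts of depth and of the counting of reads that also match Mir19b-1 were not tested.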
